A study of Mus musculus with 4 samples.

Results

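The genes described are 10 genes of fibroblast growth factor (FGF) signalling: the ligands Fgf8 and Fgf15, the receptors Fgfr1, Fgfr2 and Fgfr3, the feedback inhibitors Spry2, Spry4 and Dusp6, and the target transcription factors Etv4 and Etv5. Their N6-methyladenosine (m6A) sites were those in any of the 4 deposited site lists whose position and strand fell inside the gene's interval as the lists give it. An interval was present for 8 of the 10 genes, and Fgfr3 and Spry4 were not analysed here. The rule gave 1547 of the 881997 sites of the whole series. The interval listed for Fgfr2 also spanned 20 other genes of the same strand, so it was limited to the gene's RefSeq length counted from its 3′ end. This left 717 sites, which are the ones described.

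The 4 libraries came from mouse retinal organoids, tissue grown from stem cells in culture, at day 4 of differentiation. Both genotypes carry Rx:GFP, a fluorescent reporter of the eye field gene Rax. There were 2 wild-type (WT) libraries and 2 of a single Mettl3 knockout (KO) line, which per the labels' protocols also harbors a doxycycline-inducible HA-METTL3. The treatment label was No for all 4, the protocol lists AGN in the medium of both lines, and all 4 shared 1 batch label. METTL3 is the catalytic subunit of the enzyme that writes most m6A in mRNA. The labels do not say whether the libraries of a genotype came from separate cultures, so every p-value measures the spread between these libraries, which may be technical.

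FGF ligands bind receptor tyrosine kinases on the cell surface, which activate the RAS to ERK kinase cascade. ERK switches on the Etv transcription factors and also genes that damp the pathway, among them the Sprouty proteins and the phosphatase DUSP6, which removes phosphate from ERK. In the early eye, FGF signals pattern the optic vesicle and favour neural retina over pigmented epithelium, and Fgf15 is a marker of early neural retina progenitors.

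In GLORI, unmodified adenosine is deaminated and read as G, while m6A is still read as A. Unmodified adenosine that escapes deamination is also read as A, so a listed site is not by itself proof of m6A. The median gene had 96.1% and 96.2% of its adenosines read as G in the WT and 97.2% and 96.6% in the KO. How many listed sites are unconverted background was not tested. The level of a site is the fraction of its reads with A, and its coverage is the number of reads with A or G. No list holds a site under 15 reads, under 5 reads with A, under a level of 0.1 or with a listed p above 0.004, so a site with a lower level is not seen. Whether other filters were applied is not given in the sources used here, so absence from a list does not by itself show a low level. The lists held 227298 and 288516 sites in the WT and 230299 and 215850 in the KO, with a median coverage of 38 to 41 reads. Mettl3 itself had a gene coverage of 1.07 and 0.883 times the median gene in the WT and 1.24 and 1.08 times in the KO (limma adjusted p = 0.349). Coverage of the whole gene does not show whether a deletion is present. The label of the tissue was checked against eye field markers: of the 8 markers, 6 (Rax, Six3, Pax6, Lhx2, Hesx1 and Sox1) had listed sites in both WT libraries, Six6 had none in any library and Otx2 was not analysed here. Rax had 20 and 35 sites there and no site in either KO library.

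The 8 genes had 196 and 271 listed sites in the WT and 176 and 140 in the KO. Both KO libraries lay below both WT libraries, with means of 233.5 ± 53.0 (SD, n = 2) and 158 ± 25.5 (SD, n = 2). The KO mean was 0.677 of the WT mean (two-sided exact permutation p = 0.33, the smallest that 2 against 2 libraries can give). For all listed sites of the series, in genes or not, the ratio was 0.865. The ratio of the 8 genes was lower at high levels. Sites with a level of at least 0.5 numbered 34 and 49 in the WT and 16 and 12 in the KO, a ratio of 0.337, against 0.641 for all listed sites. Among sites with at least 100 reads and a level of at least 0.3 there were 6 and 8 in the WT and 2 and 2 in the KO. That ratio was 0.286, against 0.220 for all listed sites. Part of the sites carried the list's chromosome-wide value in place of a gene value, 79 and 118 in the WT and 53 and 41 in the KO. Without those the genotypes overlapped, at 117 and 153 against 123 and 99 sites.

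Single sites seldom recurred: 664 of the 717 (92.6%) were in 1 list, 44 in 2, 5 in 3 and 4 in all 4. The WT libraries shared 23 sites, 11.7% of the first list's and 8.49% of the second's, and the KO libraries shared 10, 5.68% and 7.14% of theirs. As a share of all sites in either list, this was 5.18% in the WT, against 5.89% over the whole series. In the KO it was 3.27%, against 2.74%, so low recurrence was general to the lists. Sites of high level and depth in 1 WT library could also be missing from the other. Of the 6 sites of the first WT library with at least 100 reads and a level of at least 0.3, 3 were in the second WT list, and of the 8 such sites of the second, 7 were in the first. The missing site with the highest level, chosen after its values were seen, was Fgfr1 position 26064010, with a level of 0.904 over 1959 reads in the first WT library and no entry in the second.

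**Figure D1:**
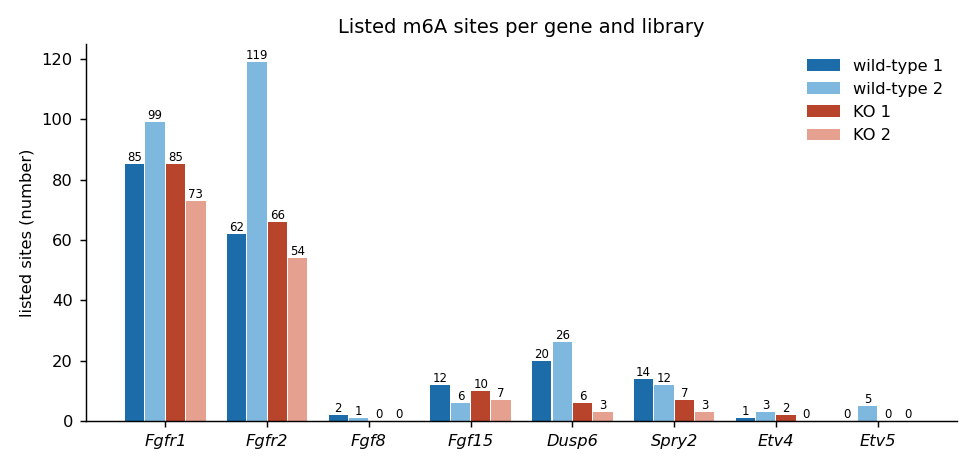
Number of listed m6A sites (vertical axis) in each of the 8 genes (horizontal axis), with 1 bar per library. Fgfr1 held 73 to 99 sites in every library, while Dusp6 held 20 and 26 in wild-type and 6 and 3 in KO.

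Fgfr1 (ENSMUSG00000031565, chr8:26003670-26065734, plus strand), the FGF receptor with the highest gene coverage of those described, had 85 and 99 listed sites in the WT and 85 and 73 in the KO. Of its 8 sites in both WT lists with at least 20 reads in each, 3 were in neither KO list (37.5%, against 83% over all genes). That background was not matched for depth, and Fgfr1 had 5.22 and 6.31 times the coverage of the median gene in the WT. The deepest of the 3 was position 26064060, 1674 bases before the 3′ end. There, the level was 0.472 over 2170 reads in the first WT library (Wilson 95% interval 0.451 to 0.493) and 0.411 over 2302 reads in the second (0.391 to 0.432). It was in neither KO list, although the gene's coverage in those libraries would give 1706 and 1278 reads. Position 26064469, 1265 bases before the end, had 0.551 over 78 reads and 0.832 over 143 in the WT, and 0.178 over 45 reads in the second KO library only. Position 26051337, 14397 bases before the end, had levels of 0.914 and 0.721 over 35 and 43 WT reads and was in neither KO list. It carried the chromosome-wide value, so no KO coverage could be estimated for it.

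Other Fgfr1 sites did not separate the genotypes. Position 26009028, 5358 bases after the gene's start, had 0.126 and 0.222 in the WT and 0.200 and 0.214 in the KO, over 119, 158, 140 and 126 reads. Position 26062474 had 0.137 and 0.184 against 0.147 and 0.143, and position 26063666 had 0.164 and 0.130 against 0.156 and 0.210. At all 3 the genotypes overlapped, and edgeR's quasi-likelihood test gave adjusted p = 0.953, 0.966 and 0.911. All 3 were thus low-level sites that stayed listed in the KO. A site close to the first of them, position 26009382, was higher in the KO than in the WT library that listed it: 0.588 and 0.258 over 34 and 62 KO reads, against 0.152 over 66 reads in the second WT library and no entry in the first.

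Fgfr2 (ENSMUSG00000030849, chr7:129764181-129868538 after the limit above, minus strand), the second receptor, had 62 and 119 listed sites in the WT and 66 and 54 in the KO, so the genotypes overlapped. Of its 8 sites in both WT lists with at least 20 reads, 6 were in neither KO list (75%, against 83% over all genes). Position 129764962, 781 bases before the 3′ end, had a level of 0.698 over 202 reads and 0.646 over 316 reads in the WT. Position 129764510, 329 bases before the end, had 0.574 over 195 reads and 0.480 over 102 reads. Neither was in a KO list, where the gene's coverage would give 181 and 153 reads at the first and 109 and 92 at the second. These were the 2 highest-level shared sites of Fgfr2 at that coverage.

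The weaker Fgfr2 sites behaved less uniformly. Position 129764983, 802 bases before the end, had 0.141 over 256 reads and 0.254 over 492 reads in the WT, and 0.105 over 162 reads in the second KO library only. Position 129764535, 354 bases before the end and 25 bases from the site 329 bases before the end, was in all 4 lists at 0.112 and 0.139 in the WT and 0.111 and 0.109 in the KO (edgeR adjusted p = 0.984). Position 129765459 was in both KO lists, at 0.157 over 229 reads and 0.200 over 190 reads, and in neither WT list. Position 129801880 was also in the KO lists alone, at 0.194 and 0.458 over 36 and 24 reads.

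The sites that both WT lists held were often near the 3′ end of the receptors. Shared sites are counted here with at least 20 reads in each list. In Fgfr1, 5 of the 8 sites shared by the WT libraries were in the last 3000 bases (62.5%), a stretch that makes up 4.83% of the interval, as were 47 of 280 sites found in 1 list only (16.8%). In Fgfr2 the shares were 5 of 8 (62.5%) and 46 of 258 (17.8%), in 2.87% of the interval. Of the sites in both KO lists, 2 of 7 in Fgfr1 (28.6%) and 2 of 3 in Fgfr2 were in that stretch. Reads of mature mRNA fall on exons, so shares of the whole interval, introns included, are a description only.

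**Figure D2:**
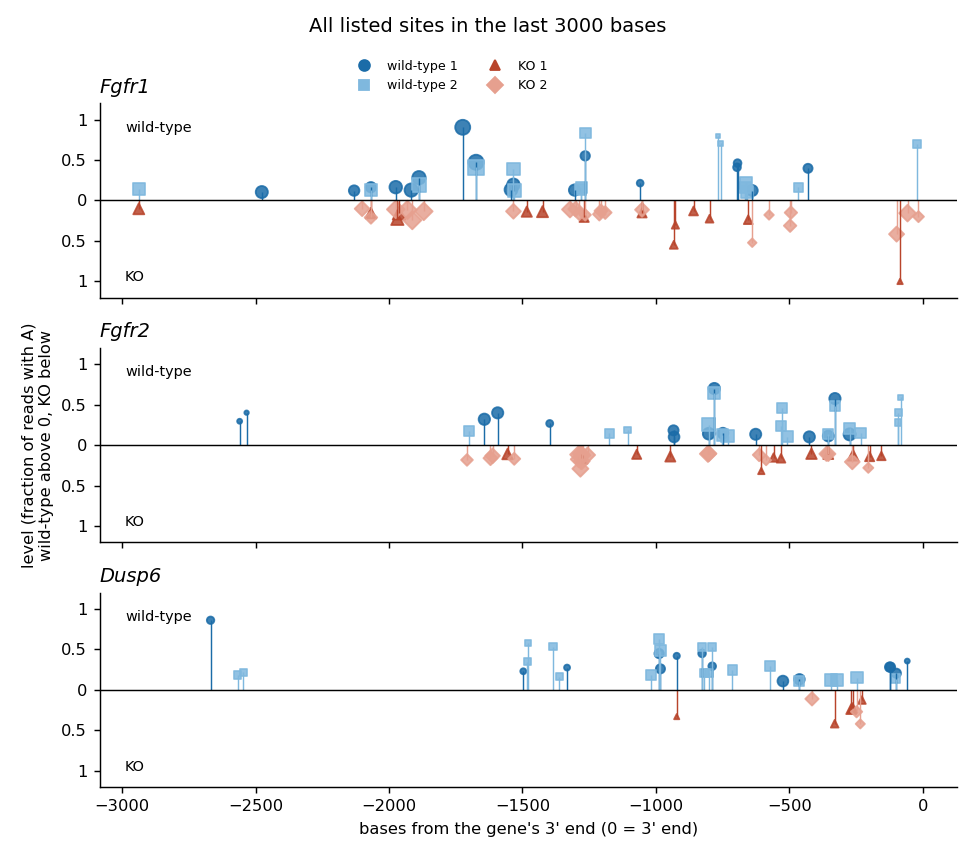
Level (vertical axis, wild-type drawn upward and KO downward) of every listed site in the last 3000 bases of Fgfr1, Fgfr2 and Dusp6 against distance from the gene's 3′ end in bases, with larger symbols for higher coverage. The Fgfr2 sites 781 and 329 bases before the end reach 0.698 and 0.574 in wild-type and have no KO symbol opposite them.

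Dusp6 (ENSMUSG00000019960, chr10:99099093-99103351, plus strand), the ERK phosphatase, had 20 and 26 listed sites in the WT and 6 and 3 in the KO. All 5 of its sites in both WT lists were in neither KO list (Wilson 95% interval 56.6% to 100%). That interval includes the 83% of such sites over all genes. Position 99102363, 988 bases before the 3′ end, had 0.446 over 74 reads and 0.624 over 125 reads in the WT. Position 99102524, 827 bases before the end, had 0.447 over 38 reads and 0.531 over 49 reads. Position 99102562 had 0.289 and 0.528 over 38 and 36 reads. The gene's KO coverage would give 53 and 72 reads at the first of these, 23 and 32 at the second and 20 and 27 at the third. At 23 and 32 reads the minimum of 5 reads with A means that only a level above 0.21 and 0.16 could be listed. At 20 and 27 reads those limits were 0.25 and 0.185, against WT levels of 0.289 and 0.528 at that site. The lowest of the 5, position 99102889, had WT levels of 0.128 and 0.107. That is close to the listing minimum of 0.1, so its absence from the KO lists says little. The lists mark all 5 sites as intronic, as they do all 8 shared WT sites of Fgfr2 with at least 20 reads, and none of the 8 of Fgfr1. This mark was not checked against exon annotation, and the 5 Dusp6 sites lay only 462 to 988 bases before the 3′ end. It is therefore not taken to place the sites in introns.

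Spry2 (ENSMUSG00000022114, chr14:106129381-106134253, minus strand), an inhibitor of receptor tyrosine kinase signalling, had 14 and 12 listed sites in the WT and 7 and 3 in the KO. A single site was shared by the WT libraries, position 106134189, 64 bases after the gene's start, at 1.00 over 22 reads and 0.969 over 32 reads. It was in neither KO list. The gene's coverage would give 16.8 and 14.7 reads there, at which a level of at least 0.30 was needed for listing in the first KO library and no level could be listed in the second.

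**Figure D3:**
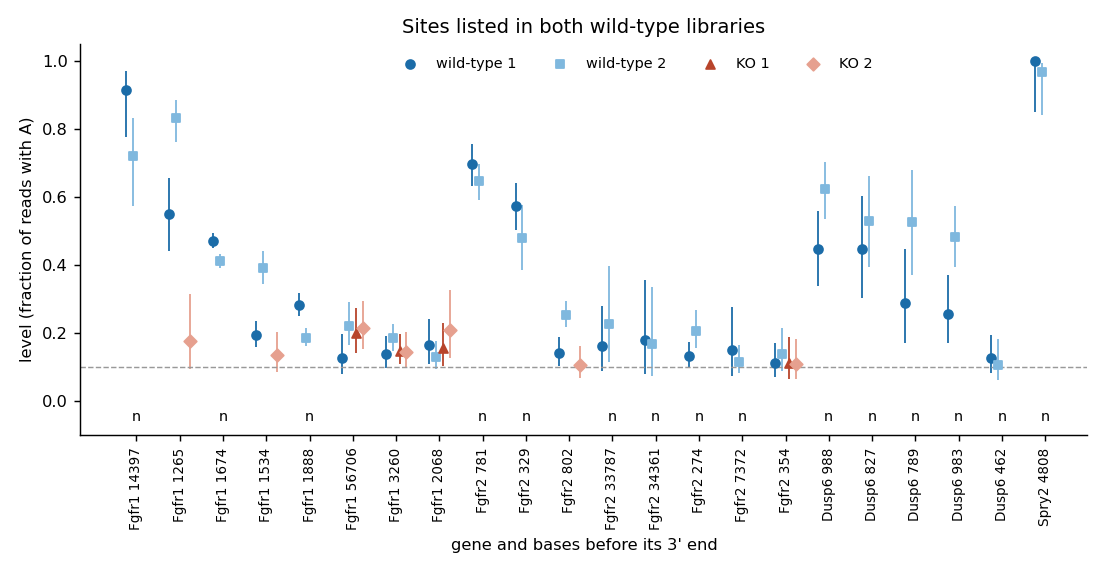
Level (vertical axis) of the 22 sites found in each wild-type list at 20 reads or more, by gene and bases before its 3′ end (horizontal axis), with Wilson 95% intervals as bars, the listing minimum of 0.1 as a dashed line and n for sites in neither KO list. The 5 Dusp6 sites and the Spry2 site all carry n, while 5 of the 8 Fgfr1 sites have a KO symbol.

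The other genes gave no site that recurred. Fgf15 (ENSMUSG00000031073, chr7:144450268-144454690) had 12 and 6 sites in the WT and 10 and 7 in the KO, none of them in more than 1 list. Fgf8 (ENSMUSG00000025219, chr19:45725237-45731354) had 2 and 1 sites in the WT and none in the KO. Etv4 (ENSMUSG00000017724, chr11:101660568-101676197) had 1 and 3 sites in the WT and 2 and 0 in the KO. Etv5 (ENSMUSG00000013089, chr16:22200059-22258469) had 5 sites in the second WT library and none in the other libraries. With no site shared by the WT libraries, a loss of m6A could not be assessed in these 4 genes.

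Over all 8 genes, 15 of the 22 sites shared by the WT libraries were in neither KO list (68.2%, Wilson 95% interval 47.3 to 83.6), against 83% of 22696 such sites over all genes. The share was thus not above the background. With a level of at least 0.3 in both WT libraries it was 7 of 8, against 85.6% over all genes, and the exception was the Fgfr1 site at 26064469. Where the KO coverage of the gene would give at least 50 reads, it was 9 of 16, a filter for which the share over all genes was not computed. At the 33 site and library pairs where this estimate could be checked, the observed coverage was 0.205 to 1.91 times the expected one, with a median of 0.851. Only sites listed in that KO library, so with at least 15 reads, could enter the check. It therefore cannot show the coverage of sites missing from the KO lists. In the other direction, 4 of the 10 sites that both KO lists held were in neither WT list, against 72.1% of 9094 over all genes. These were the 2 Fgfr2 sites above and, in Fgfr1, positions 26053273 and 26064682, the latter named after their values were seen, with KO levels of 0.115 to 0.202.

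A test of the level itself was possible only for the 4 sites in all 4 lists with at least 20 reads, 3 in Fgfr1 and 1 in Fgfr2. None passed edgeR's quasi-likelihood test at an adjusted p of 0.05 and 0 had an unadjusted p below 0.05, against 2.57% of 1557 sites called lower in the KO and 0% called higher. The count was also 0 with limma, DESeq2, edgeR's likelihood ratio test and, on counts summed per genotype, Fisher's exact test. For the pooled level of a gene's tested sites, edgeR called 0 of 2 genes (0 unadjusted, and 0 by the same other tools): Fgfr1 had an adjusted p of 0.971 and Fgfr2 one of 0.981, against 5.23% of 822 genes called lower and 0.365% called higher. A site must keep a level of at least 0.1 in both KO libraries to enter this test, so sites with the largest losses are not in it.

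Gene coverage, the lists' own value per gene, stood in for transcript abundance. It is given relative to the median gene of the same library, and the log2 changes come from limma on log2(coverage + 1) centred on each library's median gene, over 8235 genes. No value in the lists is below 15, and genes without a value in all libraries were left out. Genes of low coverage in either genotype can therefore be missing from the test. In bulk organoids, fewer cells of a type and less RNA per cell cannot be told apart. A value in all libraries was available for 5 of the genes. In 5 of 5 both KO libraries lay below both WT libraries, as did 33.4% of all genes, and in 0 of 5 above, as did 20.5%. Of the 5, 2 passed the test as lower (background 3.21%) and 0 as higher (background 2.7%), and their median log2 change was -0.55, against -0.02 over all genes.

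Fgf15, the retinal progenitor ligand, had 0.839 and 0.934 times the median gene in the WT and 0.517 and 0.526 in the KO. It fell by 0.70 ± 0.16 (SE) on the log2 scale (limma adjusted p = 0.0294). Spry2 had 1.13 and 1.04 in the WT and 0.668 and 0.658 in the KO, and fell by 0.65 ± 0.16 (SE, limma adjusted p = 0.0397). Both calls were lost when any 1 of the 4 libraries was left out, with limma adjusted p = 0.0648 to 0.180 for Fgf15 and 0.0977 to 0.209 for Spry2. In each gene the KO libraries differed little from one another and the WT libraries stood clear above them.

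The receptors and Dusp6 were lower in both KO libraries without passing the test. Fgfr1 had 5.22 and 6.31 times the median gene in the WT and 4.29 and 3.62 in the KO (log2 change -0.50 ± 0.17 SE, limma adjusted p = 0.111). Fgfr2 had 2.79 and 3.09 against 2.06 and 1.96 (-0.50 ± 0.16 SE, limma adjusted p = 0.0884), and passed with a filter on low gene coverage (0.0486). Dusp6 had 1.53 and 1.48 against 0.802 and 1.22 (-0.55 ± 0.21 SE, limma adjusted p = 0.137). Its change was -0.24 without the first KO library and -0.87 without the second, so its size varied with the KO library left out. Fgf8 had 0.785 and 0.756 in the WT and no KO value, Etv4 had 0.529 and 0.472 in the WT and 0.432 in the first KO library, and Etv5 had only 0.445 in the second WT library.

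**Figure D4:**
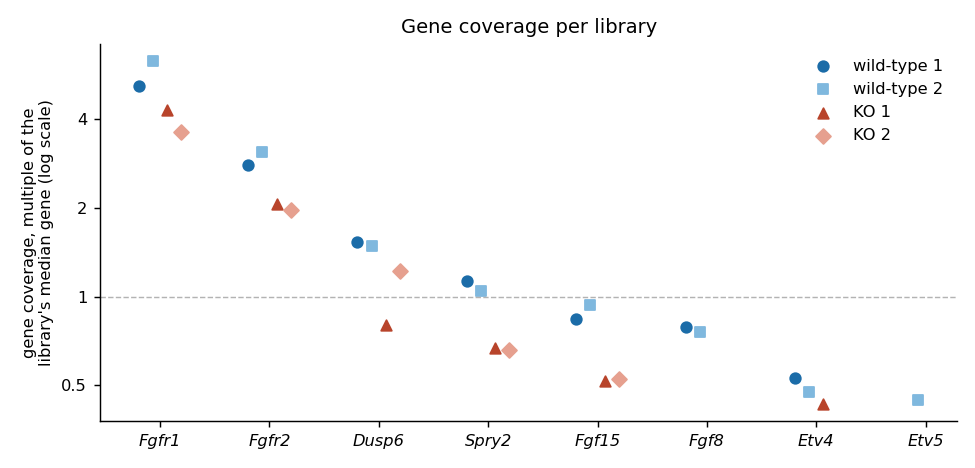
Gene coverage (vertical axis, log scale, multiples of the library's median gene, dashed line at 1) of the 8 genes in each library, with 1 symbol per library. In Fgfr1, Fgfr2, Dusp6, Spry2 and Fgf15 both KO symbols lie below both wild-type symbols, and Fgf8 and Etv5 have no KO symbol.

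Cell type markers moved with the genotype as well. The summed gene coverage of the eye field and anterior neural list was 32.1 and 35.6 median genes in the WT and 8.87 and 8.27 in the KO. Much of each WT sum was Six3, at 17.4 and 19.4 in the WT and 1.92 and 2.55 in the KO. Of its 5 measured genes 3 fell (Six3, Lhx2 and Hesx1). In Pax6 and Sox1 the genotypes overlapped (limma adjusted p = 0.728 and 0.622). The pluripotency list stood at 3.29 and 4.09 in the WT and 2.48 and 1.94 in the KO, with 2 of 2 measured genes lower. The midbrain and hindbrain list stood at 2.57 and 2.26 against 3.85 and 4.00, with 1 of 3 measured genes higher. That gene was Wnt1 (log2 change 2.10 ± 0.21 SE, limma adjusted p = 2.36e-04). En1 and Pax2 did not pass (limma adjusted p = 0.206 and 0.974). Pax3 was not in the coverage test. By number of listed sites, a different measure, it had none in the WT and 36 and 12 in the KO. Of the non-neural ectoderm list 1 gene was measured, Krt18, at 1.06 and 1.04 against 0.713 and 0.516, and it fell. No gene of the mesoderm and endoderm list had a coverage value. The part of these markers in the lower coverage of the FGF genes was not tested.

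The promoters of the feedback genes Spry2 and Dusp6 are shown because ETS factors, the class to which ETV4 and ETV5 belong, bind a GGAA core. Spry2 passed the coverage test. Dusp6 had all 5 shared WT sites missing from the KO lists, a share not told apart from the 83% over all genes. The 250 bases before each start are from RefSeq (GRCm38.p6), 5′ to 3′ on the gene's strand, with GGAA or its reverse complement TTCC in capitals. The Spry2 stretch is chr14:105896820-105897069, minus strand, and the Dusp6 stretch is chr10:99262981-99263230, plus strand. These coordinates are of another build than those of the m6A sites.
Spry2: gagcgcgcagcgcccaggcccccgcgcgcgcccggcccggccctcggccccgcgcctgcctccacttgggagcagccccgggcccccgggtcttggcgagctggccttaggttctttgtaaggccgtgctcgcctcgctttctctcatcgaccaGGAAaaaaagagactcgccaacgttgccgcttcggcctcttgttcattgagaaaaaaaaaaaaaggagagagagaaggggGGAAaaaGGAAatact
Dusp6: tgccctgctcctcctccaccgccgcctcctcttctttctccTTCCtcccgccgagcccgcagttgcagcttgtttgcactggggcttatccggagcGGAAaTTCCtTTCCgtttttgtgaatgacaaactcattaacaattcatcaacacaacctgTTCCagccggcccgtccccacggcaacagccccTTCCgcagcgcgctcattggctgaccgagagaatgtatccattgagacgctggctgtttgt
The Spry2 promoter held 3 matches and the Dusp6 promoter 6. At least 1 match was present in 93.4% of 32851 promoters of this length, with a median of 3 matches, and 8.69% had as many as Dusp6 or more. The longer CCGGAA, or TTCCGG on the other strand, was in neither promoter and in 12.0% of all. A match is a description of the letters in the window and no evidence of binding.

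The rest of the pathway was examined in 5 lists of 55 genes, of which 37 had a coverage value in all libraries. Of these, 6 fell and 2 rose (limma adjusted p under 0.05), and the median log2 change was -0.11, against 3.21% lower, 2.7% higher and a median of -0.02 over all genes. Lists this short give counts only, set beside that background. Among the inhibitors of FGF to ERK signalling 3 of 11 fell, all of them ERK or MAP kinase phosphatases: Dusp4, Dusp5 and Dusp9. Dusp4 had 1.83 and 2.47 times the median gene in the WT and 0.796 and 1.15 in the KO (log2 change -1.09 ± 0.21 SE, limma adjusted p = 0.0146). Dusp5 had 1.02 and 1.42 against 0.718 and 0.626 (-0.78 ± 0.18 SE, adjusted p = 0.0316, limma). Dusp9 changed by -0.70 (limma adjusted p = 0.0331), while Dusp7, a phosphatase of the same family, had a log2 change of -0.11 (limma adjusted p = 0.750).

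Receptors and co-receptors moved in both directions. Gpc4, a heparan sulfate proteoglycan, had 2.28 and 2.30 times the median gene in the WT and 1.15 and 1.10 in the KO, and fell by 0.97 ± 0.16 (SE) on the log2 scale (limma adjusted p = 0.00715). Flrt3, a membrane protein that binds FGF receptors, had 0.537 and 0.572 against 1.06 and 0.834, and rose by 0.79 ± 0.17 (SE, limma adjusted p = 0.0231). Of the ligands 1 of 10 was measured in all libraries, Fgf5, at 0.965 and 0.976 against 0.569 and 0.585 (log2 change -0.69 ± 0.16 SE, limma adjusted p = 0.0307). Of the RAS to ERK kinases and adaptors 1 of 15 fell, Map2k2, the kinase MEK2 (-0.63, limma adjusted p = 0.046). Of the ERK response genes 1 of 6 rose, Ier3, an immediate early gene, at 0.756 and 0.798 against 1.66 and 1.33 (0.96 ± 0.17 SE, limma adjusted p = 0.00929).

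Several of these calls were near the threshold and were lost with fewer libraries, with the direction kept. Leaving out 1 library ended the calls of Fgf5 (limma adjusted p = 0.0847 to 0.126), Dusp9 (0.0547 to 0.183) and Map2k2 (0.0762 to 0.293) in each case, of Flrt3 except without the second KO library (0.0542 to 0.0944), and of Dusp5 except without the first WT library (0.0734 to 0.270). Without the first KO library Dusp4 had a limma adjusted p of 0.0762 and Ier3 one of 0.0540. Without 1 library the log2 change of Fgf5 was -0.72 to -0.65 and that of Flrt3 0.63 to 0.94. Gpc4 kept its call without each of the 4 libraries. Without centring, which shifted all genes by a median log2 of -0.11, Flrt3 had a limma adjusted p of 0.0776.

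**Figure D5:**
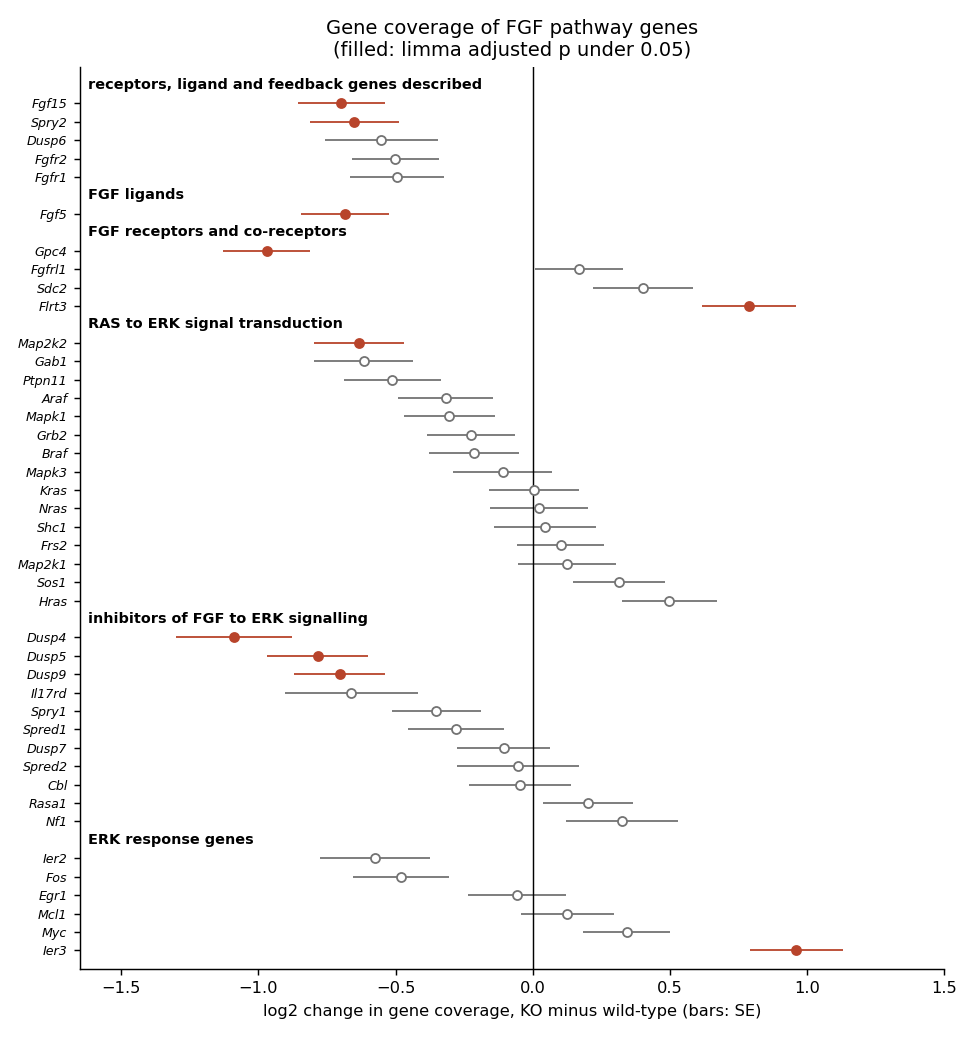
Log2 change in gene coverage, KO minus wild-type (horizontal axis, bars are SE), for each gene of the FGF pathway with a value in all 4 libraries, grouped by role, with filled symbols for limma adjusted p under 0.05. Dusp4 lies lowest at -1.09 and Ier3 highest at 0.96.

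In m6A, the pathway genes had 158 sites in both WT lists with at least 20 reads, of which 131 were in neither KO list (82.9%, against 83% over all genes). Of the 6 with the highest mean WT level, only Egr1, an immediate early transcription factor, was listed in a KO library: position 34995857 on chromosome 18 had 1.00 and 0.912 over 52 and 57 WT reads and 0.288 over 52 reads in the first KO library. The best covered of the others was in Ier2, an immediate early gene (position 85388476 on chromosome 8), at 0.986 over 211 reads and 0.977 over 307 reads in the WT, with 210 and 120 reads to be expected in the KO. The Nf1 site (chromosome 11, position 79469660), in a GTPase-activating protein of RAS, had 0.879 over 66 reads and 0.993 over 140 reads. Those of Gab1, an adaptor protein, Dusp4 and Il17rd, a membrane inhibitor of FGF signalling, had WT levels of 0.864 to 1.00 over 20 to 50 reads. The KO coverage to be expected at these 3 was low, 21.3 and 15.1 reads for Gab1, 18.9 and 24.3 for Dusp4 and 9.68 and 15.3 for Il17rd. At 9.68 reads no level could be listed. At the others a near-complete level could be listed only if the estimate held. In the check above, observed coverage was as low as 0.205 times the expected one, so absence at these 3 does not by itself show a loss.

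The lists also give a conversion rate per gene, the share of its adenosines read as G, modified or not. The test on it was chosen after the data were seen. In Fgf15 the rate was 95.4% and 95.0% in the WT and 97.4% and 98.0% in the KO. In Fgfr1 it was 94.3% and 94.5% against 96.5% and 96.0%, and in Fgfr2 95.8% and 96.0% against 97.1% and 96.8%. Spry2 had 95.1% and 94.1% against 97.7% and 95.8%, and Dusp6 95.3% and 96.5% against 97.5% and 98.5%. In 5 of 5 both KO libraries lay above both WT libraries, as did 50.1% of all genes. The differences between means were 1.07 to 2.52 percentage points, and the median over all genes was 0.633. By limma on the log2 odds, 0 of the 8235 genes passed (1706 had an unadjusted p below 0.05), and the 5 genes had limma adjusted p = 0.133 to 0.295. Centred on each library's median gene, 0 passed as well (1059 unadjusted), with limma adjusted p = 0.376 to 0.715.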

How the data were processed

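Fragmented poly(A) RNA was deaminated with glyoxal and nitrite and sequenced in paired reads, per the labels' protocols. The authors deposited 1 list of sites per library, per the file headers with a count of reads with A or G, a count with A, their ratio as a fraction, a p-value and adjusted p-value whose test is not given in the sources used here, and the coverage signal and conversion fraction of the gene. The submitters' processing notes name mm10, but 84.3% of sites fell inside a same-strand interval given with the lists and 27.3% inside one of the GRCm38 gene table. Coordinates are therefore printed as the lists give them, without a build.

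Repeated positions were merged and sites were placed with bedtools 2.31.1. Gene coverage and conversion were used for genes with 1 value per library, and values shared across a chromosome were set aside. Expected KO coverage at a site is its mean WT coverage scaled by the gene's coverage. Levels were tested with edgeR 4.0.16 on counts with and without conversion, over 1557 sites and 822 genes, and gene coverage with limma 3.58.1, both with Benjamini-Hochberg adjustment at 0.05. DESeq2 1.42.0, limma and Fisher's exact test were alternatives. Intervals cover counting error only, since reads may be PCR copies. Scripts were tested on simulated data. Named sites were those in all 4 lists, up to 3 per gene in both WT lists by mean level and up to 2 in both KO lists. Named pathway genes were the 6 with the smallest adjusted p, and 6 sites by WT level. Others were chosen after their values were seen. The genes, lists and tests were chosen with earlier results of these data known. Motifs around sites were not analysed here.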

Additional observations from a re-analysis of the deposited data

How the results depend on the processing

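The share of WT sites in neither KO list moved from 68.2% to 87.5% with a level of at least 0.3 and to 85.7% without Fgfr1, an alternative added after seeing the data. It was 53.3% with a coverage minimum of 50, the lowest value of the alternatives. Leaving out 1 library gave 68.2% to 90.8%, the highest values coming when 1 WT library was left and a site needed no second listing. The ratio of listed sites stayed below 1 under 10 alternatives, 0.373 to 0.822. The 10 pathway and FGF genes called in the coverage test became 7 to 12 under the alternatives that kept all libraries. Fewer were called when 1 library was left out, which leaves 1 library in a genotype, and the reason was not tested. The replicate block gave 12, and 0 sites and 0 genes in the tests of level. Replicate numbers did not pair the libraries: deviations from the group mean correlated at -0.0297 over 8235 genes and 0.0576 over 1557 sites. The most frequent gene value ended the calls of Spry2 (limma adjusted p = 0.0549), Dusp5 (0.0516) and Map2k2 (0.0637), and a pseudocount of 10 that of Dusp9 (0.0513). With the Fgfr2 interval as deposited, the share was 79.2%. The reference gene table's intervals were not run as an alternative, because the sites are of another build. Depth limits the low genes: fewer than 5 unconverted reads were never listed.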
